A study of Homo sapiens with 6 samples.

Results

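The Eph receptors and their ligands, the ephrins, were examined in RNA sequencing libraries that carry the label HepG2, a human cell line derived from a liver tumour. The 10 listed genes were EPHA1, EPHA2, EPHA4, EPHB2, EPHB3, EPHB4, EFNA1, EFNA4, EFNB1 and EFNB2. They were looked up by gene symbol among the 27452 rows of the count table. The list was chosen by the measured difference of EPHB2 in this same comparison, where its level was higher with the shRNA against STAT3, so that difference is a description here and no test of it is given. A row was analysed for 9 of them and 8 had enough counts to be tested, against 14999 tested rows in the whole series. EPHA4 was not analysed here. Each group had 3 libraries: a line made with a STAT3 shRNA (STAT3 shRNA libraries 1, 2 and 3) and a line made with a control shRNA (control libraries 1, 2 and 3), both grown in DMEM supplemented with FBS and antibiotics. A short hairpin RNA (shRNA) is cut in the cell into a small RNA that lowers a matching messenger RNA, and STAT3 is a transcription factor activated by cytokine receptors. The sources used here name neither the hairpin sequences nor the number of clones, and do not say whether libraries 1 to 3 are separate cultures. The p-values therefore rest on the spread among the libraries alone, possibly a technical one, and a difference between the constructed lines other than the shRNA cannot be told apart from it.

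Eph receptors form the largest family of receptor tyrosine kinases and are activated by ephrins on the surface of a neighbouring cell. A-type ephrins are held in the membrane by a lipid anchor and bind mainly EphA receptors, while B-type ephrins cross the membrane and bind mainly EphB receptors. Binding signals both into the cell that carries the receptor and, in reverse, into the cell that carries the ephrin. The system is known for guiding axons, for keeping cell populations apart at tissue boundaries, for ordering cells along the intestinal crypt and for separating arteries from veins. EphA2 and EphB4 are the receptors often found in epithelial tumour cells.

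Libraries held 17408543 to 25862027 counts. A count of 0, taken to allow up to 3 counts, allows 0.113 to 0.175 counts per 1000000 counts (CPM), for counting error only. STAT3 itself was at 35.6 ± 0.729 CPM in the STAT3 shRNA libraries and 251 ± 8.67 CPM in the control libraries (SD, n = 3 each). Of the 14999 genes tested with edgeR's quasi-likelihood test, 2627 passed a false discovery rate (FDR) of 0.05, which is 17.5%, with 1408 higher and 1219 lower (53.6% higher). The higher share was 62.3% of 2667 calls under upper-quartile scaling and 68.6% of 2785 calls under library totals. Calls numbered 1462 without STAT3 shRNA library 1, 1475 without STAT3 shRNA library 3, 4098 without control library 1 and 1527 without control library 2. The labelled cell type was not borne out by all of its markers: of 14 hepatocyte and HepG2 markers listed, 7 were analysed, and albumin (ALB) had 0, 0 and 3 counts in the STAT3 shRNA libraries and 2, 0 and 0 in the control libraries. The 7 summed to 5.94 to 8.93 CPM in the STAT3 shRNA libraries and 2.27 to 3.95 CPM in the control libraries, with HNF4A, a liver and gut transcription factor, higher at 6.57 ± 1.41 CPM in the STAT3 shRNA libraries, against 1.51 ± 0.259 CPM in the control libraries (log2 fold change 2.12 ± 0.240 (SE), edgeR adjusted p = 0.000407). TF, or transferrin, the other of these markers with enough counts to be tested, had 24, 22 and 8 counts in the STAT3 shRNA libraries and 10, 38 and 41 in the control libraries and did not pass (-0.97 ± 0.518, edgeR adjusted p = 0.239). Of 6 general epithelium markers, 5 rose (EPCAM, KRT8, KRT18, KRT19 and CLDN4) and the 6 summed to 4658 to 5105 CPM in the STAT3 shRNA libraries and 2818 to 3390 CPM in the control libraries. KRT8 and KRT18 made up most of that sum, with means of 2878 and 1745 CPM with the STAT3 shRNA and 1812 and 1254 CPM with the control shRNA. The other marker, the cadherin CDH1, was low, with 23, 15 and 11 counts in the STAT3 shRNA libraries and 16, 8 and 7 in the control libraries. It did not pass (0.37 ± 0.452, edgeR adjusted p = 0.618). The call of CLDN4 was lost in 5 of 13 alternatives: with no filter, without control library 2 and without each STAT3 shRNA library in turn. In bulk RNA, more cells of a type and more RNA per cell cannot be told apart, and the part of these markers in the results that follow was not tested.

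EPHB2 (ENSG00000133216.16), a B-class receptor that orders cells along the intestinal crypt and shapes synapses in the brain, was the listed gene with the largest difference. It was at 17.7, 19.5 and 17.2 CPM in STAT3 shRNA libraries 1 to 3, against 2.10, 2.03 and 1.42 CPM in the control libraries. Every STAT3 shRNA library lay far above every control library. Mean levels were 18.1 ± 1.21 CPM with the STAT3 shRNA and 1.85 ± 0.371 CPM with the control shRNA (SD, n = 3 each), a 9.79-fold higher level and a fitted log2 fold change of 3.29 ± 0.174 (SE). The raw numbers behind it were 471, 397 and 315 counts in the STAT3 shRNA libraries and 36, 38 and 27 counts in the control libraries. Summed counts were 1183 (exact 95% Poisson interval 1117 to 1252, for counting error only) with the STAT3 shRNA and 101 (82.3 to 123) with the control shRNA. As a description of its place in the series, 76 of the 14999 tested genes, or 0.507%, had a larger log2 fold change. Leaving out any one library, or changing the scaling, the filter or the test, gave values of 3.14 to 3.40 on the log2 scale.

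The stretch around the RefSeq transcript start is shown for 3 listed genes: EPHB2 and EFNB2, which were both higher with the STAT3 shRNA, and EPHA2, which was lower. Each runs from 250 bases before to 50 bases after the start, 5′ to 3′ on the gene's strand, in build GRCh38.p14. The windows are chr1:22710588-22710887 (plus strand) for EPHB2, chr13:106535613-106535912 (minus strand) for EFNB2 and chr1:16156020-16156319 (minus strand) for EPHA2. Capitals mark matches on either strand to the motifs searched.
EPHB2: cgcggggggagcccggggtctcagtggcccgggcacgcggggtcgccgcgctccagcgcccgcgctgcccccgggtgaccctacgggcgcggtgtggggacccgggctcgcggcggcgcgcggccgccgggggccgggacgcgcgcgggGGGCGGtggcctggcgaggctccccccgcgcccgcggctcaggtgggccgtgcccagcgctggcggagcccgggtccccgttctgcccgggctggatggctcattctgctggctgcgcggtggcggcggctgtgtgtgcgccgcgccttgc
EFNB2: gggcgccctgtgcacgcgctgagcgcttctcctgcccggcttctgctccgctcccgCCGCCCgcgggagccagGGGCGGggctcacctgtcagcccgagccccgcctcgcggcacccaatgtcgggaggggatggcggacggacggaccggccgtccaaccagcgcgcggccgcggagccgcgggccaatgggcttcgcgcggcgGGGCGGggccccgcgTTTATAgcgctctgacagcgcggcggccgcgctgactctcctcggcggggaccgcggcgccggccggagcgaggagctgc
EPHA2: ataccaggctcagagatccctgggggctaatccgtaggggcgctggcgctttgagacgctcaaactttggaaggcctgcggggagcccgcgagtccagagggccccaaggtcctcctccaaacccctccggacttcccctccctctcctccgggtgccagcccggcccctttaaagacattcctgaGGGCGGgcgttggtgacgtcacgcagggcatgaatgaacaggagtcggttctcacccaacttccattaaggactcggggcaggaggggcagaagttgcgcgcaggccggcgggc
The motifs were the STAT palindrome TTCNNNGAA, the TCF cores CTTTGAA and CTTTGAT, the AP-1 site TGANTCA, the GC box GGGCGG and the TATA box TATAAA, and no matches to different motifs overlapped in these windows. EPHB2 held 1 GC box, EFNB2 3 GC boxes and 1 TATA box (read on the opposite strand, its first base 30 bases before the start), and EPHA2 1 GC box. A GC box stood in 45.0% and a TATA box in 11.5% of the 35116 promoter windows of the same table. None of the 3 windows held the STAT palindrome, found in 7.66% of all windows, or the TCF cores (4.43% and 2.62%) or the AP-1 site (7.71%), which says only that those letters are not in these windows. The EPHB2 and EFNB2 windows were rich in G and C, at 83.0% and 78.7%, with 49 CG pairs each, against 64.3% and 20 CG pairs for EPHA2 and medians of 58.7% and 14 over all windows. Fewer CG pairs than in the EPHB2 or EFNB2 window stood in 98.4% of windows.

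**Figure D1:**
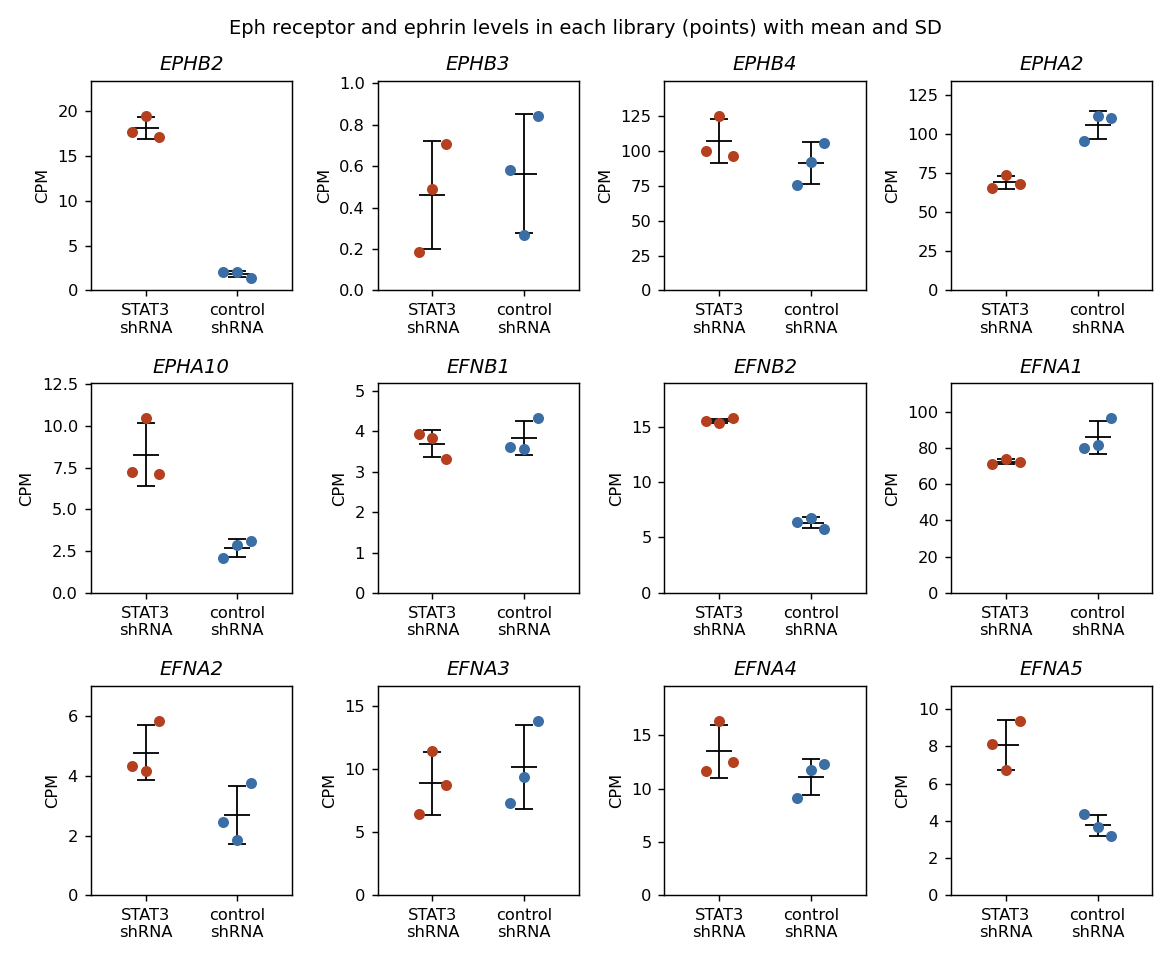
Each panel shows the level of 1 gene in CPM on a linear axis from 0, with a point for each library, and the mean and SD of the 3 STAT3 shRNA libraries (left, red) and the 3 control libraries (right, blue). EPHB2, EFNB2, EPHA10, EFNA5 and EFNA2 lie higher and EPHA2 and EFNA1 lower in all 3 STAT3 shRNA libraries, while the groups overlap in the other panels.

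Neither of the other listed B-class receptors passed the threshold. EPHB4 (ENSG00000196411.10), the receptor that marks veins and binds ephrin-B2, was at 99.7, 125 and 95.9 CPM in STAT3 shRNA libraries 1 to 3, against 75.3, 92.2 and 105 CPM in the control libraries. The groups overlapped: STAT3 shRNA libraries 1 and 3 lay below control library 3. The fitted log2 fold change of EPHB4 was 0.23 ± 0.144 (SE, edgeR adjusted p = 0.308), which did not pass the threshold. EPHB3 (ENSG00000182580.3), which acts beside EPHB2 in the crypt, had 5, 10 and 13 counts in the STAT3 shRNA libraries and 10, 5 and 16 counts in the control libraries. At this depth no difference in EPHB3 was detectable (-0.33 ± 0.598, edgeR adjusted p = 0.743), and the sign of its estimate turned without STAT3 shRNA library 1 (0.081) or without control library 3 (0.092). EPHB1, a receptor of the nervous system, and EPHB6, which has no kinase activity, are not among the listed genes. EPHB1 had 1 count in all, in control library 1, and EPHB6 had 1, 0 and 3 counts in the STAT3 shRNA libraries and 0 in each control library.

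Among the A-class receptors, EPHA2 fell and EPHA10 rose. EPHA2 (ENSG00000142627.13), which can signal in tumour cells without a ligand, was at 65.8, 73.9 and 68.1 CPM in STAT3 shRNA libraries 1 to 3, against 95.8, 112 and 110.3 CPM in the control libraries. The highest STAT3 shRNA library lay well below the lowest control library. The mean was 69.3 ± 4.17 CPM with the STAT3 shRNA and 106 ± 8.80 CPM with the control shRNA, a log2 fold change of -0.61 ± 0.0958 (SE, edgeR adjusted p = 0.00231, n = 3 each). EPHA10 (ENSG00000183317.17), a receptor that lacks kinase activity and is not among the listed genes, was at 7.24, 10.4 and 7.13 CPM in STAT3 shRNA libraries 1 to 3, against 2.10, 2.88 and 3.11 CPM in the control libraries. All 3 STAT3 shRNA libraries were above the control libraries, library 2 the most (log2 fold change 1.61 ± 0.226, edgeR adjusted p = 0.00126). EPHA1, an epithelial receptor, was at the floor in both groups, with 1, 2 and 2 counts in the STAT3 shRNA libraries and 0, 2 and 0 in the control libraries. EPHA6, a receptor of the nervous system outside the listed genes, had 2 counts in each STAT3 shRNA library and 0 in each control library, which is too few for a fold change.

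Of the B-type ephrins, EFNB2 rose and EFNB1 did not pass the threshold. EFNB2 (ENSG00000125266.7), the arterial partner of EphB4 and also a ligand of EphB2, was at 15.5, 15.3 and 15.7 CPM in STAT3 shRNA libraries 1 to 3, against 6.41, 6.77 and 5.79 CPM in the control libraries. Its libraries were the closest together of the listed genes in the STAT3 shRNA group, with a coefficient of variation of 1.42% (7.83% in the control group). The mean was 15.5 ± 0.221 CPM with the STAT3 shRNA and 6.32 ± 0.495 CPM with the control shRNA, a 2.45-fold higher level (log2 fold change 1.29 ± 0.124, edgeR adjusted p = 0.000170). EFNB1 (ENSG00000090776.6), another transmembrane ephrin, was at 3.94, 3.83 and 3.32 CPM in STAT3 shRNA libraries 1 to 3, against 3.61, 3.57 and 4.32 CPM in the control libraries. The groups overlapped and the estimate of -0.05 ± 0.187 (edgeR adjusted p = 0.883) changed sign with upper-quartile scaling (0.0017), with library totals (0.047) and without STAT3 shRNA library 3 (0.017) or control library 3 (0.049). EFNB3, not among the listed genes, had 1, 0 and 0 counts in the STAT3 shRNA libraries and 1, 4 and 0 in the control libraries.

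Of the 5 A-type ephrins tested, EFNA5 rose and 4 did not pass the threshold. EFNA1 (ENSG00000169242.12), a main ligand of EphA2, was at 71.0, 73.8 and 72.0 CPM in STAT3 shRNA libraries 1 to 3, against 79.9, 81.5 and 96.2 CPM in the control libraries. The groups did not overlap, but the difference of -0.25 ± 0.0970 on the log2 scale did not pass the threshold (edgeR adjusted p = 0.115, and 0.0510 to 0.317 over its 13 alternatives). EFNA4 (ENSG00000243364.8), which lies beside EFNA3 and near EFNA1 on chromosome 1, was at 11.7, 16.3 and 12.5 CPM in STAT3 shRNA libraries 1 to 3, against 9.15, 11.7 and 12.3 CPM in the control libraries, and the groups overlapped (0.29 ± 0.171, edgeR adjusted p = 0.288). Outside the listed genes, EFNA5 (ENSG00000184349.13), an A-type ephrin that is also known to bind EphB2, was at 8.11, 6.72 and 9.37 CPM in STAT3 shRNA libraries 1 to 3, against 4.37, 3.68 and 3.21 CPM in the control libraries. Each STAT3 shRNA library lay above each control library (log2 fold change 1.10 ± 0.192, edgeR adjusted p = 0.00408). EFNA2 was at 4.32, 4.17 and 5.83 CPM in STAT3 shRNA libraries 1 to 3, against 2.45, 1.87 and 3.74 CPM in the control libraries, with no overlap. It did not pass the threshold (0.82 ± 0.277, edgeR adjusted p = 0.0735), although 4 of 13 alternatives called it (adjusted p from 0.0155 to 0.257), among them the fit without control library 3. EFNA3 was at 6.46, 11.4 and 8.71 CPM in STAT3 shRNA libraries 1 to 3, against 7.34, 9.33 and 13.8 CPM in the control libraries, with wide overlap (-0.20 ± 0.265, edgeR adjusted p = 0.642, and 0.089 without control library 3).

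In all, 2 of the 8 tested listed genes were higher past the threshold, EPHB2 included, 1 was lower and 5 did not pass, beside 17.5% of all tested genes called (9.39% higher and 8.13% lower). The same 3 genes were called under all 13 alternatives. The groups did not overlap for 4 of the 8, beside 35.7% of all tested genes. Because the list was drawn up for EPHB2 in this same comparison, these counts are a description. The median log2 fold change of the 8 was 0.09, beside -0.01 over all tested genes. Of 12 other family genes, 8 had a row analysed and 4 were tested, of which EPHA10 and EFNA5 rose and 2 did not pass (median 0.96).

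**Figure D2:**
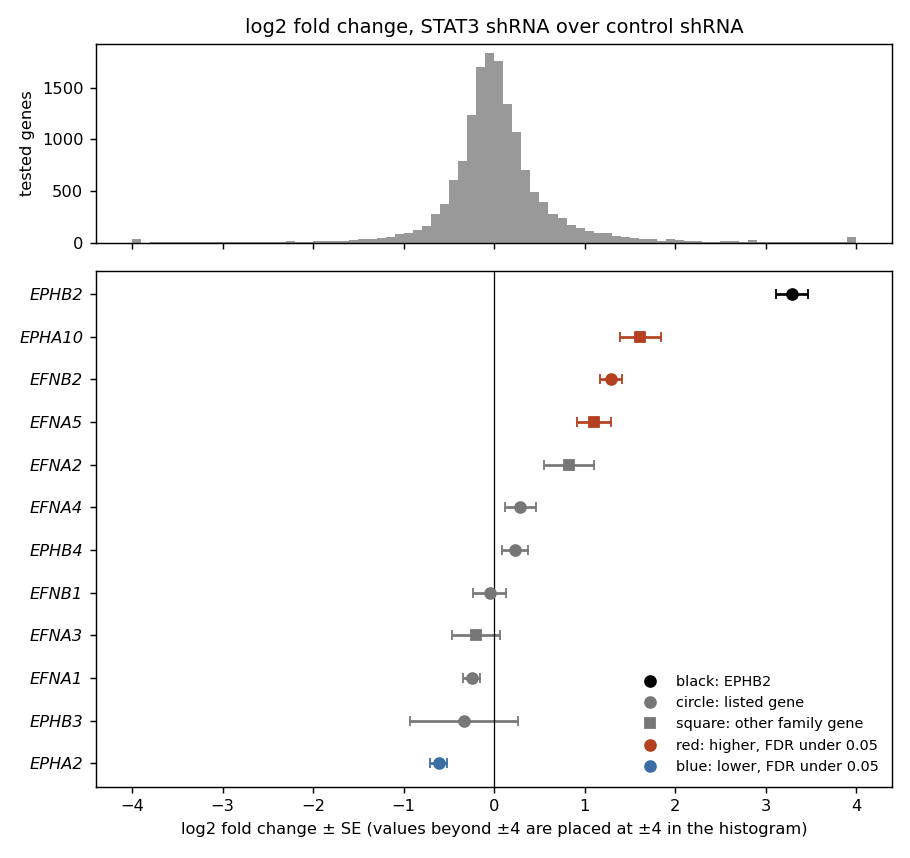
The upper panel is a histogram of the log2 fold changes of all 14999 tested genes, and the lower panel gives the log2 fold change with its SE for the 12 tested Eph and ephrin genes, both as STAT3 shRNA over control shRNA. EPHB2 stands at 3.29, EPHA10, EFNB2 and EFNA5 between 1.10 and 1.61, and EPHA2 lowest at -0.61.

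Levels of different genes were compared as CPM per kilobase of the longest transcript in GENCODE 29. In the STAT3 shRNA libraries the order was EFNA1 (37.5 ± 0.742 CPM per kb), EPHB4 (21.1 ± 3.11), EPHA2 (17.5 ± 1.05), EFNA4 (10.7 ± 1.96), EFNA2 (5.03 ± 0.967), EFNA3 (4.97 ± 1.40), EFNB2 (3.10 ± 0.0442), EPHB2 (1.67 ± 0.112), EPHA10 (1.53 ± 0.347), EFNA5 (1.51 ± 0.248), EFNB1 (1.12 ± 0.0993) and EPHB3 (0.109 ± 0.0617). Neighbours in that order lay apart in every library except EFNA2 and EFNA3, EPHB2 and EPHA10, and EPHA10 and EFNA5, whose ranges overlapped. The order depends on the length used: with the median length of the protein-coding transcripts of each gene, an alternative added after seeing the data, EPHB2 was at 4.92 ± 0.330 CPM per kb in the STAT3 shRNA libraries, above EFNB2 at 3.28 ± 0.0467 and EPHA10 at 3.17 ± 0.721 in every library. In the control libraries EPHA2 came before EPHB4, at 26.7 ± 2.22 CPM per kb, with EPHB4 at 18.0 ± 2.97, and EPHB2 stood 11th at 0.171 ± 0.0343 CPM per kb, its range overlapping that of EPHB3 at 0.133 ± 0.0681. With the median lengths EPHB2 was at 0.503 ± 0.101 CPM per kb in the control libraries, apart from EPHB3. The per-kilobase level of EPHB4 was 1.19, 1.32 and 1.10 times that of EPHA2 in the STAT3 shRNA libraries and 0.616, 0.647 and 0.748 times in the control libraries. That ratio was higher in each STAT3 shRNA library than in any control library, while EPHB4 itself did not pass the test and EPHA2 did. With the union of exons as length, EPHA2 stood above EPHB4 in STAT3 shRNA libraries 1 and 3, so that which of them leads there depends on the length. Per kilobase, EPHB4 was 12.1, 13.7 and 11.95 times EPHB2 in the STAT3 shRNA libraries, against 76.8, 97.3 and 158 times in the control libraries. With the median lengths the gap was smaller, with means of 28.2 CPM per kb for EPHB4 and 4.92 for EPHB2 in the STAT3 shRNA libraries. EFNB2 was 2.603, 2.65 and 3.14 times EFNB1 in the STAT3 shRNA libraries, against 1.18, 1.26 and 0.890 times in the control libraries, so that EFNB2 led in every library but control library 3.

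Of the summed per-kilobase level of the 5 listed receptors analysed, EPHB2 made up 4.30%, 3.98% and 4.18% in the STAT3 shRNA libraries, against 0.492%, 0.401% and 0.268% in the control libraries. EPHA2 made up 43.4 ± 2.07% with the STAT3 shRNA and 59.5 ± 2.38% with the control shRNA, and EPHB4 52.1 ± 2.27% with the STAT3 shRNA and 39.8 ± 2.43% with the control shRNA (SD, n = 3 each). EPHB2 thus remained a minor part of the receptor mix in every library. Its share depends on the length used: GENCODE 29 gives EPHB2 5 protein-coding transcripts, the longest of 10816 bases, with a median of 3677. With the median lengths the EPHB2 share was 9.73 ± 0.402% with the STAT3 shRNA and 0.9998 ± 0.295% with the control shRNA. With that length EPHB4 and EPHA2 overlapped in the control libraries, at 24.002 ± 3.97 and 26.7 ± 2.22 CPM per kb. Summed over classes, the B-type ephrins were at 4.30, 4.22 and 4.15 CPM per kb in the STAT3 shRNA libraries, against 2.39, 2.50 and 2.46 in the control libraries. The EphA receptors summed to 18.0, 20.6 and 18.5 CPM per kb in the STAT3 shRNA libraries, against 24.5, 28.7 and 28.4 in the control libraries. The EphB receptors summed to 20.8 to 26.6 CPM per kb in the STAT3 shRNA libraries and 15.2 to 21.1 in the control libraries, and the A-type ephrins to 55.8 to 63.3 CPM per kb in the STAT3 shRNA libraries and 56.2 to 72.0 in the control libraries, both with overlap.

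**Figure D3:**
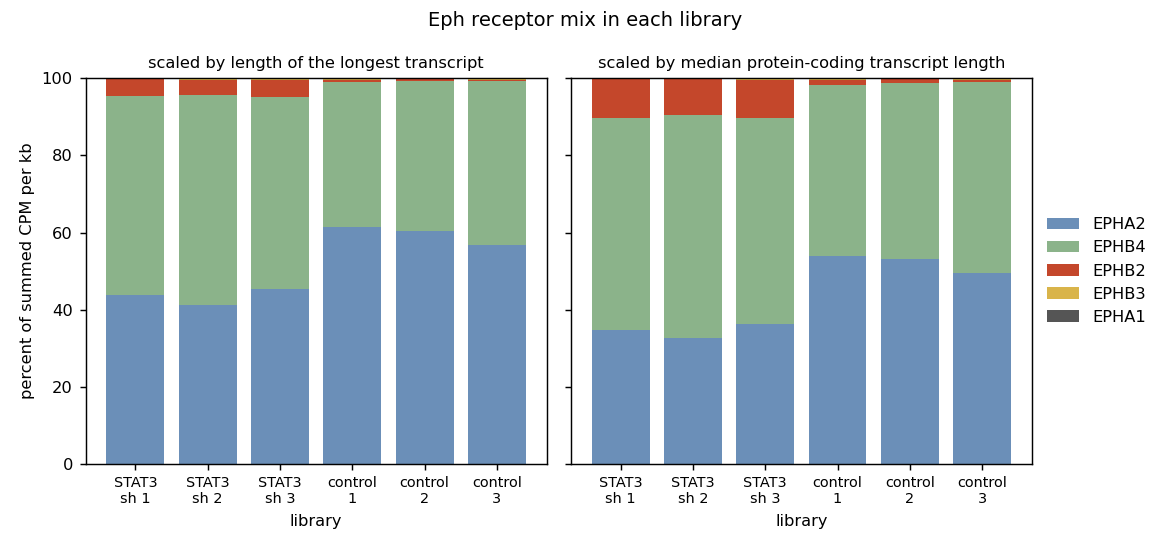
Stacked bars give the percent of the summed CPM per kilobase of EPHA2, EPHB4, EPHB2, EPHB3 and EPHA1 in each library, with the STAT3 shRNA libraries on the left of each panel, scaled by the longest transcript (left panel) or the median protein-coding transcript (right panel). EPHB2 takes 3.98% to 4.30% of the bars of the STAT3 shRNA libraries on the left panel, and EPHA2 and EPHB4 take most of every bar.

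Reads of overlapping genes could not be told apart where strand is unknown. The exons of EFNB2 share 1313 bases with the antisense gene AL138689.2, which had 6, 0 and 5 counts in the STAT3 shRNA libraries and 1, 0 and 1 in the control libraries, far fewer than EFNB2. EFNA4 and EFNA3 share exons with the read-through gene AL691442.1, which had 0 counts in each STAT3 shRNA library and 0, 2 and 0 counts in the control libraries. EPHB4 shares 69 exon bases with SLC12A9, EPHA1 82 with ZYX and EPHB2 34 with the microRNA gene MIR4253. Of the 3 nearest tested genes on each side of EPHB2 on chromosome 1, LINC00339, CDC42, ZBTB40 and HTR1D did not pass the threshold and the histone demethylase gene KDM1A rose (0.85 ± 0.0841, edgeR adjusted p = 0.000194). LUZP1 was at 0.32 ± 0.0959 (edgeR adjusted p = 0.04997, just past the threshold), a call lost in 9 of 13 alternatives, among them every fit that left out a STAT3 shRNA library and those without control library 2 or 3. HTR1D was at 0.51 ± 0.174 (edgeR adjusted p = 0.0766). These 3 genes lie on the same side of EPHB2, and each was higher in every STAT3 shRNA library, beside 18.5% of all tested genes. On the other side, LINC00339, CDC42 and ZBTB40 were at 0.03, 0.09 and -0.08. A local pattern was not tested.

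The genes whose profile over the 6 libraries lay nearest to that of EPHB2, among 10360 protein-coding genes of at least 5 CPM on average, were NPTXR, F2R, FLNC, LAMA1 and ATL1. The average was over all 6 libraries. NPTXR, F2R and ATL1 had control means below 5 CPM and so passed this limit only through the STAT3 shRNA libraries. NPTXR was at 9.20 ± 1.87 CPM with the STAT3 shRNA and 0.935 ± 0.222 CPM with the control shRNA. The root mean square distance of their centred log2(CPM + 0.1) values from those of EPHB2 was 0.13 for NPTXR, 0.21 for F2R, 0.24 for FLNC, 0.24 for LAMA1 and 0.27 for ATL1. F2R, the thrombin receptor PAR1, was at 11.5, 10.8 and 15.2 CPM in STAT3 shRNA libraries 1 to 3, against 1.63, 1.44 and 1.05 CPM in the control libraries. FLNC, an actin cross-linker of muscle, was at 48.7 ± 8.21 CPM with the STAT3 shRNA and 5.44 ± 0.307 CPM with the control shRNA. ATL1, which shapes the endoplasmic reticulum, was at 36.7 ± 0.425 CPM with the STAT3 shRNA and 4.62 ± 0.585 CPM with the control shRNA. As this measure follows the difference between the groups, the likeness is a description.

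Genes that act with the Eph system are read beside the 17.5% of all tested genes called (9.39% higher and 8.13% lower), and none of the shares called in these lists was tested against it. Among 25 tested adaptors and kinases that bind Eph receptors or ephrins, 2 rose, 4 fell and 19 did not pass (median log2 fold change -0.07, beside -0.01 over all tested genes). SDCBP, or syntenin, which binds the tail of B-type ephrins, rose to 350.4 ± 15.5 CPM with the STAT3 shRNA, against 175 ± 14.3 CPM with the control shRNA (1.004 ± 0.0907, edgeR adjusted p = 0.000121). CNKSR1, a scaffold reported to bind ephrin-B1, rose (1.03 ± 0.149), and the adaptor SHC1 (-0.64 ± 0.0948) and the Src family kinase FYN (-0.84 ± 0.135) fell. With upper-quartile scaling or library totals 4 rose, the median turned to 0.03 with library totals, and without STAT3 shRNA library 3 the fallen numbered 2.

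Among 15 tested genes of shedding and turnover, the 3 membrane proteases MMP14, ADAM10 and ADAM17 rose and 12 genes did not pass (median 0.05), beside 17.5% of all tested genes called. MMP14, a membrane metalloproteinase that cleaves EphA2, was at 49.0 ± 4.29 CPM with the STAT3 shRNA and 28.3 ± 6.35 CPM with the control shRNA (0.79 ± 0.155, edgeR adjusted p = 0.00769). ADAM10, which cuts ephrins bound to their receptors, was at 93.5 ± 6.11 CPM with the STAT3 shRNA and 65.3 ± 11.7 CPM with the control shRNA (0.52 ± 0.131, edgeR adjusted p = 0.0250), and ADAM17, a related sheddase, at 38.6 ± 1.51 CPM with the STAT3 shRNA and 28.3 ± 3.75 CPM with the control shRNA (0.45 ± 0.117, edgeR adjusted p = 0.0281). The count was 1 without STAT3 shRNA library 1 or 3 or without control library 2, where the ADAM10 and ADAM17 calls were lost, and 2 without STAT3 shRNA library 2, where that of ADAM17 was lost. With upper-quartile scaling or library totals it was 4. The median turned to -0.0040 without control library 3. EPHB2 and EPHB3 are described as targets of beta-catenin and TCF factors in the intestine. Of 17 other such genes analysed 9 were tested, of which 2 rose, 1 fell and 6 did not pass (median 0.16), beside 17.5% of all tested genes called. RNF43, a ubiquitin ligase that lowers Wnt receptors, had 111, 90 and 48 counts in the STAT3 shRNA libraries and 3, 1 and 3 counts in the control libraries. RNF43 thus passed the count filter only through the STAT3 shRNA libraries, so its place among the tested genes depends on its level there. The related ligase ZNRF3 fell (-0.87 ± 0.106, edgeR adjusted p = 0.000591) and the transcription factor SOX4 rose (0.69 ± 0.105, edgeR adjusted p = 0.00201). AXIN2 and LGR5, the usual Wnt readouts, had no more than 5 counts in any library, too few to be tested. LGR5 had 5, 3 and 4 counts in the STAT3 shRNA libraries and 0, 1 and 0 in the control libraries. Also untested, APCDD1 (18, 9 and 16 against 0, 0 and 0 counts) and NKD1 (17, 9 and 4 against 0, 0 and 2) were higher with the STAT3 shRNA. SP5 (6, 9 and 4 against 15, 25 and 10) was lower. For the other untested genes of this list the groups overlapped. Without control library 1 the TCF list gave 4 higher and 2 lower, without control library 3 2 lower, and with no filter on low counts 4 higher.

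**Figure D4:**
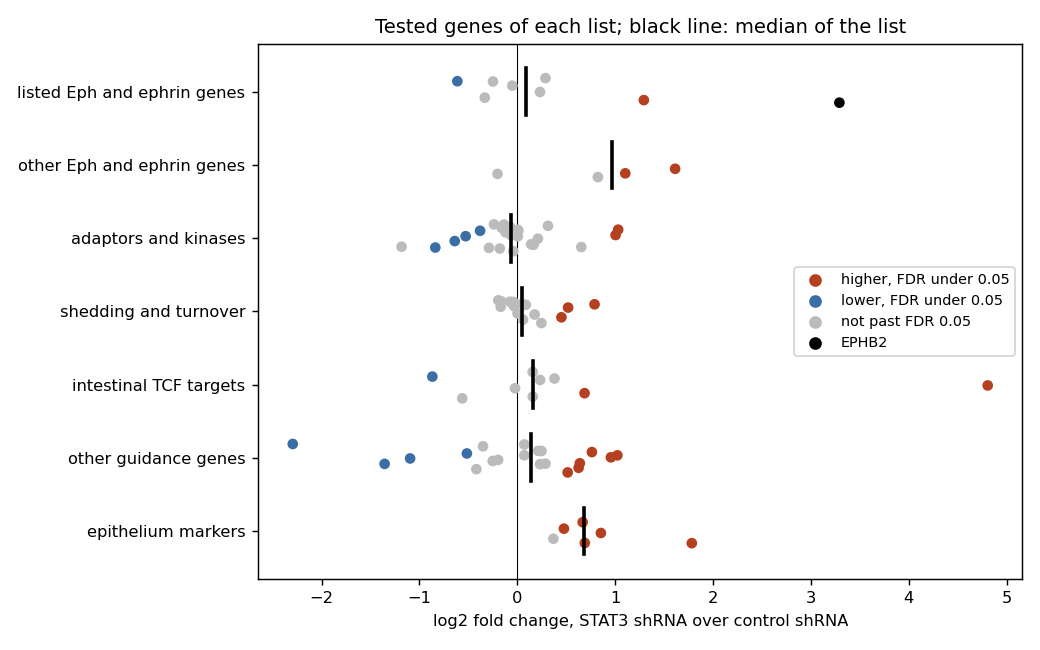
Points are log2 fold changes, STAT3 shRNA over control shRNA, of the tested genes of 7 lists, coloured by whether they passed the FDR of 0.05 (EPHB2 in black), with the median of each list as a black line. Most points of the adaptor and shedding lists lie near 0, and the epithelium markers lie to the right, with a median of 0.68.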

How the data were processed

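Counts per gene for 6 libraries were used as deposited: whole numbers, not normalized by the authors as far as the values show. Not given in the sources used here were the aligner, counting program, genome build, annotation and strand setting. In 23 rows a symbol turned into a date was restored by identifier. Groups and library numbers came from the titles.

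In R 4.3.3, edgeR 4.0.16 kept 14999 genes (filterByExpr, minimum count 10, minimum total 15), scaled libraries by TMM and tested STAT3 shRNA against control shRNA with the robust quasi-likelihood F test, two-sided, group only, with Benjamini-Hochberg adjustment over all tested genes at an FDR of 0.05. CPM uses TMM-scaled library sizes. The SE is the log2 fold change divided by the square root of F. TMM assumes that most genes do not differ. The procedure was tested on simulated counts. Libraries of a group differed beyond sampling noise (chi-square per degree of freedom 4.20 to 43.0). Transcript lengths and overlaps came from GENCODE 29, matched by identifier for 25996 rows, and promoter sequences from RefSeq by symbol. No protein table was used here.

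Alternatives were other scalings, no filter, no robust dispersion, DESeq2 1.42.0, a block for library number, leaving out each library and other gene lengths. Genes were named by rule: all family genes with a row, STAT3, up to 4 called genes of each list with the smallest FDR (if none was called, the 2 with the highest mean CPM), the 5 nearest profiles, 3 neighbours on each side and overlapping genes. CLDN4, CDH1, ALB, TF, AXIN2, LGR5, APCDD1, NKD1 and SP5 were named after their values were seen. So were the endothelium and fibroblast markers other than CDH5 and COL1A1. The listed genes and all gene lists were chosen with earlier results of these data known. One further list of signalling genes is not reported here.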

Additional observations from a re-analysis of the deposited data

How the results depend on the processing

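The called genes among those listed stayed at 3 under all 13 alternatives, and no alternative reversed EPHB2, EFNB2, EPHA2, EPHA10 or EFNA5. EPHB2, for whose rise the list was chosen, is among these 3, so its part in the count is a description. The count over all tested genes ranged from 1462 to 4098 when 1 library was left out and was 2278 with a replicate block. Deviations from the group means correlated between the groups at 0.28, 0.19 and -0.23 for numbers 1, 2 and 3. Between libraries of different number they correlated at -0.46 to 0.33, and not every library correlated best with its own number. Deviations within a group depend on each other, so these values cannot show whether the library numbers pair the groups. The block changed no call of a listed gene and called EFNA2 (adjusted p = 0.0366). Estimates that changed sign were those of EPHB3 (0.081 without STAT3 shRNA library 1 and 0.092 without control library 3, and -0.76 to 0.092 over the fits that left out 1 library), EFNB1 (0.0017 with upper-quartile scaling, 0.047 with library totals, 0.017 without STAT3 shRNA library 3, and -0.10 to 0.049 over the fits that left out 1 library) and EFNA3 (0.089 without control library 3, and -0.43 to 0.089 over the fits that left out 1 library), and none of these passed the threshold in either direction. The EPHB2 share of the receptor sum was 9.73% with median protein-coding transcript lengths, 4.16% with the union of exons and 4.08% to 4.24% when 1 STAT3 shRNA library was left out, against 4.15%. At 5 to 16 counts per library, EPHB3 allows no statement on differences of moderate size, and EPHA1, EPHA6, EPHB1, EPHB6 and EFNB3 were at or near the floor.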

Other observations

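Other axon guidance genes changed in both directions. Of 20 tested semaphorins, plexins, neuropilins, robos, netrins and netrin receptors, 6 rose, 4 fell and 10 did not pass the FDR of 0.05 (edgeR quasi-likelihood test, beside 17.5% of all tested genes called), with a median log2 fold change of 0.14. NRP2, a semaphorin and VEGF co-receptor, fell to 14.4 ± 1.67 CPM in the STAT3 shRNA libraries, against 37.0 ± 0.838 CPM in the control libraries (SD, n = 3 each; -1.36 ± 0.114 (SE), edgeR adjusted p = 8.46e-05). SEMA3B, a secreted semaphorin, fell to 95.3 ± 9.99 CPM with the STAT3 shRNA, against 204 ± 39.6 CPM with the control shRNA (-1.10 ± 0.145). SEMA4D, a ligand of plexin B1, rose to 20.4 ± 1.61 CPM with the STAT3 shRNA, against 10.5 ± 0.863 CPM with the control shRNA (0.96 ± 0.121), and the netrin NTN4 rose to 33.3 ± 0.940 CPM with the STAT3 shRNA, against 21.4 ± 1.34 CPM with the control shRNA (0.64 ± 0.0987).

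Marker lists of other cell types differed in level. The 5 intestinal epithelium markers analysed of 8 summed to 0.343 to 0.871 CPM in the STAT3 shRNA libraries and 0.0527 to 0.587 CPM in the control libraries. These markers lay near the floor, with too few counts to be tested. The 5 endothelium markers analysed of 7 summed to 1.39 to 2.29 CPM with the STAT3 shRNA and 1.28 to 1.92 CPM with the control shRNA. Of these, CDH5 was at 0.749 ± 0.145 CPM with the STAT3 shRNA and 1.31 ± 0.393 CPM with the control shRNA and did not pass the threshold, while VWF had 10, 19 and 15 counts in the STAT3 shRNA libraries and 1, 0 and 3 in the control libraries and CLDN5 had 2, 5 and 8 counts in the STAT3 shRNA libraries and 0, 1 and 2 in the control libraries, too few to be tested. The 3 blood markers analysed of 7 summed to 0.272 to 0.450 CPM with the STAT3 shRNA and 0 to 0.640 CPM with the control shRNA. The 6 fibroblast markers analysed of 8 summed to 36.1 to 37.9 CPM with the STAT3 shRNA and 53.3 to 61.2 CPM with the control shRNA, and the collagen gene COL1A1 fell (-1.40 ± 0.108, edgeR adjusted p = 5.16e-05). The other fibroblast markers tested did not pass and had estimates of the opposite sign, DCN at 14.6 ± 0.764 CPM with the STAT3 shRNA and 11.9 ± 1.68 CPM with the control shRNA and PDGFRB at 6.05 ± 0.673 CPM with the STAT3 shRNA and 4.81 ± 0.808 CPM with the control shRNA. Among the untested markers, THY1 had 11, 13 and 9 counts in the STAT3 shRNA libraries and 2, 3 and 1 in the control libraries. LUM had 7, 3 and 6 counts in the STAT3 shRNA libraries and 0, 0 and 2 in the control libraries. COL3A1 was lower, as COL1A1 was, with 1, 0 and 0 counts in the STAT3 shRNA libraries and 2, 1 and 8 in the control libraries. The median log2 fold change of the 3 fibroblast markers tested was 0.30. The epithelial adhesion gene EPCAM rose to 10.5 ± 0.769 CPM with the STAT3 shRNA, against 3.05 ± 0.387 CPM with the control shRNA (1.78 ± 0.161, edgeR adjusted p = 0.000121). The keratin KRT8 rose to 2878 ± 161 CPM with the STAT3 shRNA, against 1812 ± 172 CPM with the control shRNA (0.67 ± 0.0960, edgeR adjusted p = 0.00143). The part of these markers in the Eph and ephrin results was not tested.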
